A study of Mus musculus with 4 samples.

Results

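The 7 genes for matrix metalloproteinases studied here (Mmp2, Mmp3, Mmp9, Mmp11, Mmp12, Mmp13 and Mmp14) and 3 genes for their tissue inhibitors (Timp1, Timp2 and Timp3) were read by symbol from the 32285 genes of a single-cell RNA data set of mouse mammary tumors, and all 10 were found. The question was which cells of the tumor carry the transcript of each enzyme and inhibitor, and whether the levels differed with the loss of Frmd8. Tumors of 4 littermate mice at 17 to 18 weeks of age were profiled, with 1 library per mouse made with the 10x Genomics 3' v3 kit from cells that had been sorted by flow cytometry. The genotype of replicates 1 and 3 was MMTV-Cre-; Frmd8fl/fl; PyMT (Cre-), that of replicates 2 and 4 MMTV-Cre+; Frmd8fl/fl; PyMT (Cre+). All 4 mice carried the polyoma middle T transgene, which drives the tumors, and both floxed Frmd8 alleles. Cre was driven by the MMTV promoter, which is active mainly in luminal epithelium, so the fibroblasts and immune cells of the Cre+ mice were not targeted by design.

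Matrix metalloproteinases are zinc-dependent endopeptidases that cut collagens, elastin, laminin and other proteins of the extracellular matrix. Most are secreted as inactive proenzymes, and Mmp14 is anchored in the cell membrane. The tissue inhibitors bind the active site of the enzymes, and Timp2 bound to Mmp14 also takes part in the activation of pro-Mmp2. In breast tumors these genes are known to be made by stromal and immune cells as well as by tumor cells.

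Barcodes with at least 1000 UMIs (unique molecular identifiers, 1 per captured transcript) and at most 20% mitochondrial UMIs were kept, which left 4922 (replicate 1), 5609 (replicate 2), 5918 (replicate 3) and 7123 (replicate 4) barcodes with a median of 12455 to 13073 UMIs. Each barcode was placed in 1 of 11 classes by UMIs of marker genes, none of which is a member. It needed at least 3 UMIs from at least 2 markers of a class and at least 3 times the marker UMIs of every other class. The classes were checked with genes outside the marker lists, in CPM (UMIs per 1000000 UMIs of the class). Col1a1 was at 6741 to 10917 CPM in the fibroblasts, Pecam1 at 1113 to 1268 in the endothelial cells, Notch3 at 269 to 637 in the mural cells, S100a9 at 33677 to 64147 in the neutrophils and Cd68 at 577 to 694 in the macrophages. The library of replicate 4 was deposited with all of its barcodes, whereas the other 3 held called cells, and pairs of libraries shared 6 to 16 barcode sequences.

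The fibroblast gate took in barcodes with little Col1a1 in all 4 libraries, most of them in replicate 4. In replicate 4, 63 of its 178 fibroblast barcodes had fewer than 3 Col1a1 UMIs, and these 63 carried the basal keratins Krt14 and Krt5 at 4215 and 2339 CPM, with Mmp2 at 29.4 and no Mmp3 UMI. In replicate 1, 19 of the 234 fibroblast barcodes had fewer than 3 Col1a1 UMIs. These 19 carried Mmp3 at 3735 and the secreted phosphoprotein Spp1 at 50132 CPM. They also carried the milk protein Csn3 at 7093 and the iron carrier Trf at 5973 CPM, against 323 and 389 in the other fibroblasts. Replicates 2 and 3 had 11 and 9 such barcodes, with Spp1 at 17090 and 15405, Csn3 at 6597 and 2491 and Trf at 7180 and 6152 CPM. Fibroblast values that these barcodes move are also given for fibroblasts with at least 3 Col1a1 UMIs, a limit added after the values had been seen.

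Levels are in CPM of the class in a library. Where 4 values are listed, the first pair is from the Cre- mice (replicates 1 and 3) and the second pair from the Cre+ mice (replicates 2 and 4). Class differences were tested with edgeR's quasi-likelihood test on the UMIs summed per library and class, with Benjamini-Hochberg adjustment over 12471 genes and a threshold of 0.05. The p-values measure the spread of these sums around the class and genotype means, pooled over the classes. The sums come from 4 mice, and this fit treats sums of 1 mouse in different classes as independent. Log2 fold changes are given where the higher class averaged at least 10 CPM. Their SE was derived from the test, as the absolute log2 fold change divided by the square root of the F statistic. The kit counts 1 end of each transcript, and capture can still differ between genes.

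Among the promoters of the members, the sequences of 3 neighbours on chromosome 9 are shown, because these genes were divided between fibroblasts and macrophages. Mmp3 (stromelysin) was a fibroblast transcript, Mmp12 (macrophage metalloelastase) a macrophage transcript, and Mmp13 (collagenase) was found in both. The windows run from 250 bases before to 50 bases after a RefSeq start in GRCm38.p6, all on the plus strand, at chr9:7445572-7445871 for Mmp3, chr9:7347124-7347423 for Mmp12 and chr9:7272264-7272563 for Mmp13. Capitals mark matches to TGANTCA, the motif bound by AP-1 factors, and to TATAAA, the letters of the TATA box motif.
Mmp3: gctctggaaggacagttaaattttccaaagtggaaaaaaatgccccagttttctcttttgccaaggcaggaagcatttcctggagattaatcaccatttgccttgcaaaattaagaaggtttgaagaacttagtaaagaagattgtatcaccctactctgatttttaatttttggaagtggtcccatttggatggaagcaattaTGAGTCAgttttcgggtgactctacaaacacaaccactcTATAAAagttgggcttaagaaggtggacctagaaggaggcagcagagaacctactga
Mmp12: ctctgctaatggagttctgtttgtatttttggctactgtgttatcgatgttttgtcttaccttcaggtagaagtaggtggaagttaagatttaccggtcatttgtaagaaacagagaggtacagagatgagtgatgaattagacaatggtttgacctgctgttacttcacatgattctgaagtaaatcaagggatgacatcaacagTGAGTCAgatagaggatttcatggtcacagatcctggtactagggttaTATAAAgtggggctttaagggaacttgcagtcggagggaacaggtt
Mmp13: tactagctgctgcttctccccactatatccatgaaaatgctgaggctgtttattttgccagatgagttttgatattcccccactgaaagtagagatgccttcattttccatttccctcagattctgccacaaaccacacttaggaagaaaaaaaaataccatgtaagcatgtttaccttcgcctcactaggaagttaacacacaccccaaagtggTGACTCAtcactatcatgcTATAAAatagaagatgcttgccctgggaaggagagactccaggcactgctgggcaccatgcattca
All 3 windows held 1 TGANTCA match, beginning 46, 44 and 35 bases before the listed start in Mmp3, Mmp12 and Mmp13, and each held 1 TATAAA match downstream of it. The TATAAA match began 7 bases before the listed start in Mmp3 and 16 before it in Mmp13, and in Mmp12 it began 4 bases after the listed start. Both strands were searched, and the 2 motifs do not overlap. Of 32851 mouse promoter windows of the same length, 7.81% held TGANTCA and 13.6% held TATAAA. Windows were found for 8 of the 10 members (9 windows, 2 of them for Mmp12), and the other 6 windows, those of Mmp11, Mmp14, the 3 inhibitors and the other Mmp12 start, held neither. A match is a description of the letters and not evidence of a bound factor.

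Mmp3 was the member most tightly tied to 1 class. It was at 1015, 910, 568 and 748 CPM in the fibroblasts and at no more than 5.84 on average in any other class. The whole fibroblast gate held 96.0%, 95.1%, 96.2% and 95.3% of all Mmp3 UMIs of the 4 libraries. No library of another class reached the lowest fibroblast library. In replicate 1, 2034 of the 6185 fibroblast Mmp3 UMIs came from the 19 barcodes with fewer than 3 Col1a1 UMIs. With the Col1a1 limit the levels were 748, 920, 573 and 1262, so that replicate 4 was the highest library. The mean of 810 became 1330 with the study's limits on barcodes, from 200 to 5000 genes and fewer than 30000 UMIs. Against neutrophils, the class next in order, the log2 fold change was 7.08 (SE 0.58, adjusted p = 3.34e-12), and against epithelial cells it was 9.91 (SE 0.49, adjusted p = 3.50e-17).

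Mmp2, a gelatinase that degrades denatured collagen and basement membrane collagen, was at 1198, 1211, 1191 and 611 CPM in the fibroblasts. The level of replicate 4 was lower than the other 3, and with at least 3 Col1a1 UMIs it was 1011, beside 1267, 1218 and 1201. Mural cells, the pericytes around small vessels, followed at 36.2, 199, 21.4 and 233, and macrophages at 31.2, 17.0, 35.7 and 13.6. The mural libraries spread widely, with 2 high and 2 low values that did not follow genotype. Fibroblasts exceeded mural cells by 3.34 on the log2 scale (SE 0.55, adjusted p = 1.70e-05), and mural cells exceeded macrophages by 1.99 (SE 0.53, adjusted p = 0.0021). Fibroblasts held between 67.6% and 91.4% of the Mmp2 UMIs of a library.

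Mmp9, the other gelatinase, which neutrophils are known to store in granules, was led by the neutrophils at 922, 672, 756 and 678 CPM, a mean of 757 ± 116 (SD, n = 4). Fibroblasts averaged 21.2 ± 17.0 and macrophages 4.34. Every neutrophil library was above every fibroblast library, by 5.29 on the log2 scale (SE 0.52, adjusted p = 1.06e-10), and neutrophils exceeded macrophages by 7.59 (SE 0.58, adjusted p = 1.02e-12). Neutrophils numbered 234, 76, 30 and 62 barcodes and held 76.1%, 20.6%, 15.2% and 45.1% of the Mmp9 UMIs. In replicates 2 and 3 the larger share lay in fibroblasts, with 60.2% and 40.6%.

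Fibroblast Mmp9 was concentrated in few cells. Barcodes with at least 3 Mmp9 UMIs, a split made after its values were seen, numbered 3, 25, 18 and 2 and held 68.8%, 95.3%, 93.8% and 88.3% of the fibroblast Mmp9 UMIs. In these barcodes the smooth muscle gene Tagln was at 1643, 3849, 3759 and 7110 CPM. In the other fibroblasts it was at 832 in replicate 1 and 925 in replicate 2. Tnc was lower in the chosen barcodes of replicate 1 (310 against 679) and higher in those of replicate 2 (1419 against 197). The chosen barcodes were deeper, with medians of 27496 against 23007 UMIs in replicate 1 and 64978 against 28304 in replicate 2. The 3 barcodes of replicate 1 also carried Il1b at 1172 and the neutrophil marker Hdc at 230 CPM.

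Mmp11, a stromelysin first described in tumor stroma, was the only member led by mural cells, at 55.2, 79.7, 107 and 29.3 CPM against 29.9, 32.0, 16.7 and 32.6 in fibroblasts. The ranges of the 2 classes overlapped through replicate 4, where fibroblasts were at 55.0 with the Col1a1 limit. The mural mean of 67.8 became 102 with the study's limits on genes and UMIs. The log2 difference was 1.06 (SE 0.35, adjusted p = 0.0253). It was no longer called with fibroblasts of at least 3 Col1a1 UMIs (0.73, adjusted p = 0.138). Without replicate 1, 2 or 3, where it ranged from 0.55 to 1.21, it was not called either. The call was also lost with a stricter gate on markers (0.85, adjusted p = 0.103) and with the gate read from thinned barcodes (0.83, adjusted p = 0.138). Mural barcodes numbered only 79, 60, 56 and 37. Fibroblasts exceeded T cells, the class next in order at 2.99 CPM, by 3.02 (adjusted p = 6.75e-07) and epithelial cells by 4.79 on the log2 scale (SE 0.39, adjusted p = 1.86e-11).

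Mmp12 was a macrophage transcript at 216, 160, 219 and 688 CPM. Replicate 4 stood far above the others, whereas replicates 1, 2 and 3 lay between 160 and 219. Macrophages held 90.9%, 86.5%, 86.1% and 94.2% of its UMIs. Monocytes followed at 5.93, 26.5, 9.93 and 105, again with replicate 4 highest. Macrophages exceeded monocytes by 3.11 (SE 0.65, adjusted p = 0.000633) and epithelial cells by 7.48 (SE 0.75, adjusted p = 9.22e-11) on the log2 scale. After every barcode was thinned to 1000 UMIs, Mmp12 was detected in 10.3%, 5.17%, 5.26% and 24.4% of macrophages. T cells, which should lack it, gave 0, 0, 0 and 0.474%. As deposited, the macrophage shares were 22.7%, 13.7%, 15.2% and 50.4%, at median depths of 10782 to 16858 UMIs, against 5533 to 12122 in T cells.

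Mmp13 was found in macrophages and, in the Cre- libraries, in few fibroblast barcodes that held nearly all of its fibroblast UMIs. Macrophages carried it in every library at 64.6, 58.2, 41.8 and 137 CPM. Fibroblasts carried it at 23.8 and 243 in the Cre- libraries and at 0.262 and 0.959 in the Cre+ libraries. The class means of 75.5 ± 42.4 and 66.9 ± 118 (SD, n = 4) could not be told apart, with fibroblasts minus macrophages at -0.32 on the log2 scale (SE 1.09, adjusted p = 0.828), and without replicate 3 macrophages were higher, with fibroblasts minus macrophages at -3.64 (adjusted p = 0.0195). Fibroblasts exceeded epithelial cells by 6.06 (SE 1.32, adjusted p = 0.000314), but without replicate 3 that difference was 2.72 (adjusted p = 0.114). With the study's limits on genes and UMIs, macrophages were called higher, with fibroblasts minus macrophages at -3.88 (adjusted p = 9.37e-05). Fibroblasts minus epithelial cells was then 1.97 and not called (adjusted p = 0.0614). Macrophages held 81.6%, 33.0%, 94.1% and 94.0% of the Mmp13 UMIs, and fibroblasts held 53.3% in replicate 3.

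Mmp14, which cuts collagen at the cell surface, was the most widely shared enzyme. It was at 405, 366, 324 and 272 CPM in fibroblasts, 226, 281, 218 and 292 in endothelial cells, 313, 252, 195 and 251 in mural cells and 164, 134, 109 and 101 in macrophages. With the Col1a1 limit fibroblasts were at 424, 365, 325 and 415. No neighbouring pair in this order passed the test: the log2 differences were 0.62 (adjusted p = 0.091), 0.06 (adjusted p = 0.932) and 0.66 (adjusted p = 0.0682). Fibroblasts against macrophages did, by 1.34 (SE 0.30, adjusted p = 0.000232). Epithelial cells averaged 27.0 ± 7.95 (SD, n = 4), below fibroblasts, endothelial cells and macrophages in the tests, and still held between 14.5% and 30.5% of the Mmp14 UMIs.

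**Figure D1:**
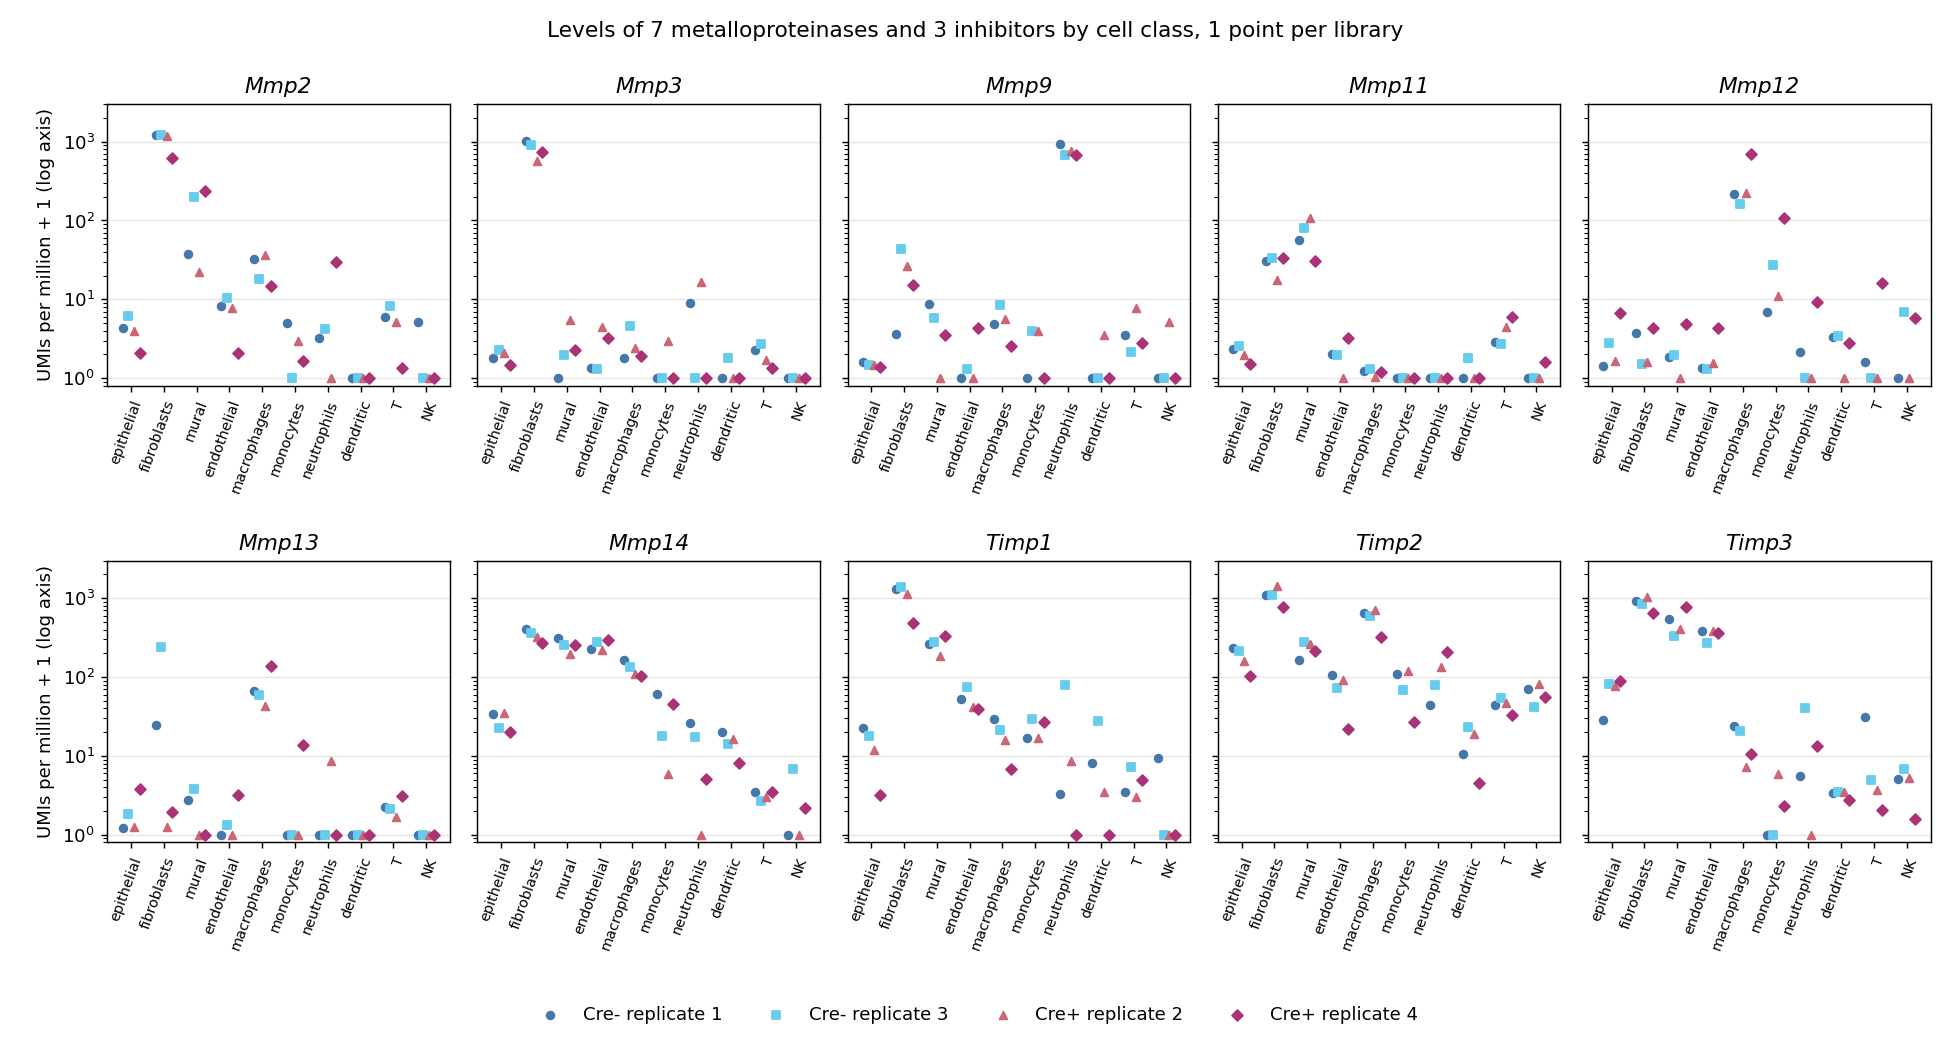
CPM plus 1 (log axis) of each member in 10 cell classes, 1 point per library, colored by mouse. Mmp3 stands high only in fibroblasts among these classes, Mmp9 in neutrophils and Mmp12 in macrophages, with replicate 4 highest at 688, while Mmp14 spans fibroblasts, endothelial cells, mural cells and macrophages.

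The inhibitors were also led by fibroblasts, followed by mural cells for Timp1 and Timp3 and by macrophages for Timp2. Timp1, an inhibitor of most secreted enzymes that is induced by growth factors and cytokines, was at 1324, 1374, 1118 and 489 CPM in fibroblasts. Replicate 4 was again the lowest, also with at least 3 Col1a1 UMIs, where the levels were 1415, 1387, 1129 and 819. The mean of 1076 became 622 with the study's limits on genes and UMIs. Mural cells followed at 265, 277, 182 and 332 and endothelial cells at 51.2, 73.9, 41.2 and 38.4. Each step was past the threshold, with 2.20 (SE 0.49, adjusted p = 0.00081) from mural cells to fibroblasts and 2.42 (SE 0.52, adjusted p = 0.00029) from endothelial to mural cells. Epithelial cells and macrophages did not pass the test against each other (0.71, SE 0.47, adjusted p = 0.203).

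Timp2 was the inhibitor with UMIs spread most broadly over the classes. T cells, NK cells and endothelial cells averaged 43.7, 61.4 and 71.7 CPM. Barcodes of at most 100 UMIs in replicate 4, which hold free RNA, were at 202 CPM. How much of the lower class levels came from free RNA was not tested. Fibroblasts carried 1084, 1111, 1439 and 767 CPM, macrophages 647, 602, 707 and 319, mural cells 161, 279, 258 and 213, and epithelial cells 235, 210, 161 and 101. In each library, fibroblasts were above macrophages, and with the Col1a1 limit they were at 1140, 1118, 1448 and 1256, with replicate 4 no longer the lowest. The difference was 0.89 on the log2 scale (SE 0.38, adjusted p = 0.0494), at the edge of the threshold, and without replicate 1, 2 or 3 it was 0.83 to 0.91 and not called. Macrophages exceeded mural cells by 1.65 (SE 0.40, adjusted p = 0.00069) and epithelial cells by 1.93 (SE 0.40, adjusted p = 7.91e-05). The largest share of its UMIs lay in epithelial cells in replicate 1 (53.5%), in fibroblasts in replicate 2 (45.1%) and in macrophages in replicates 3 and 4 (34.5% and 53.4%).

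Timp3, the inhibitor that is held in the matrix, was at 923, 844, 1045 and 653 CPM in fibroblasts, 550, 328, 410 and 773 in mural cells and 379, 266, 387 and 362 in endothelial cells. With the Col1a1 limit fibroblasts were at 939, 831, 1041 and 1054. Fibroblasts and mural cells overlapped in the whole gate, and mural cells minus fibroblasts was -0.99 on the log2 scale (SE 0.46, adjusted p = 0.12). The difference was called with at least 3 Col1a1 UMIs (-1.18, adjusted p = 0.0446) and without replicate 4 (-1.40, adjusted p = 0.0219). Epithelial cells followed at 27.6, 81.7, 76.4 and 87.7, below endothelial cells by 2.24 (SE 0.48, adjusted p = 0.000147) and above macrophages by 2.10 (SE 0.48, adjusted p = 0.000308).

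**Figure D2:**
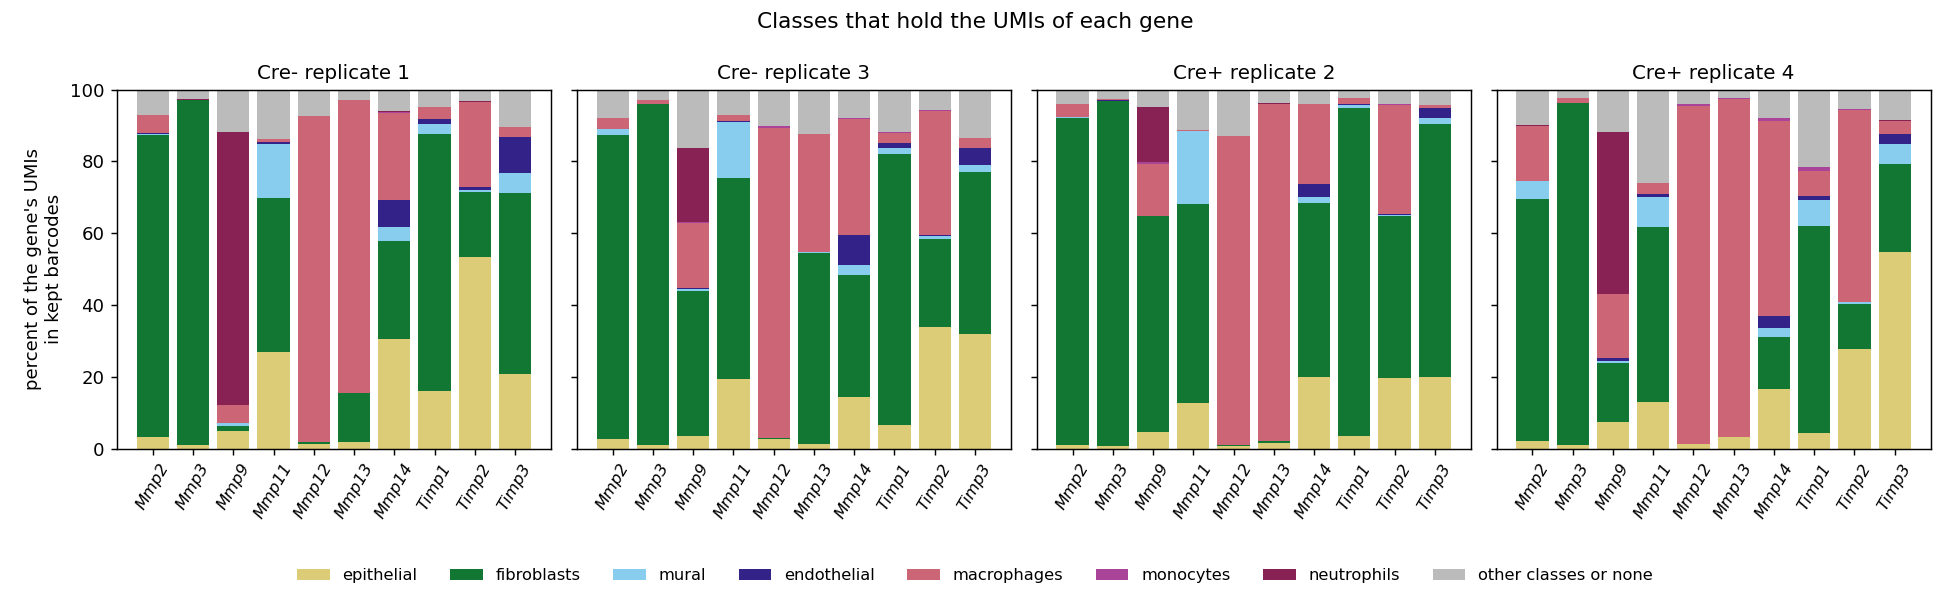
Percent of the UMIs of each member held by each class, 1 panel per library. The whole fibroblast gate holds more than 95% of Mmp3 in every library. In replicate 1, 2034 of its 6185 Mmp3 UMIs lie in 19 barcodes with fewer than 3 Col1a1 UMIs. Macrophages hold 86.1% to 94.2% of Mmp12. The inhibitors are divided among fibroblasts, epithelial cells and macrophages in shares that change between the mice.

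Counted over the 6 class comparisons, fibroblasts were higher than epithelial cells for 9 of 10 members and lower for 0, beside 51.4% of all genes called and 26.8% called higher. The members were chosen with earlier results of these data known, so such counts describe them and test no enrichment. The median log2 fold change was 5.19 for the members and -0.06 for all genes. The member that was not called was Mmp12, with -0.28 (SE 0.78, adjusted p = 0.789). Macrophages were higher than epithelial cells for 7 members and lower for Mmp11 and Timp3, beside 58% of genes called, 27% higher and 31% lower. Fibroblasts were higher than macrophages for 8 members and lower for Mmp12, beside 55.9% called, 30.2% higher and 25.6% lower. The Mmp9 call (2.29, SE 0.47, adjusted p = 8.61e-05) ended with the study's limits on genes and UMIs (0.50, adjusted p = 0.421).

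Endothelial cells were higher than epithelial cells for Mmp14, Timp1 and Timp3 and lower for Timp2 (-1.33, SE 0.40, adjusted p = 0.0051), beside 51.5% of genes called, 23.7% higher and 27.9% lower. The Timp2 call was lost without replicate 3 (-1.25, adjusted p = 0.0516). Mural cells were higher than fibroblasts for Mmp11 and lower for 6 members, beside 24.8% called, 8.74% higher and 16.1% lower. Of these 6, Mmp9 was not called without replicate 2 or 3 (-2.21, adjusted p = 0.0766, and -2.11, adjusted p = 0.0953), nor was Mmp13 without replicate 1 or 3 (-5.96, adjusted p = 0.101, and -3.66, adjusted p = 0.332). With the study's limits on genes and UMIs, Mmp9 (-2.12, adjusted p = 0.156) and Mmp13 (-1.48, adjusted p = 0.532) were not called either. Mmp14, not called in this comparison, was lower in mural cells without replicate 4 (-0.80, adjusted p = 0.0374), with the Col1a1 limit (-0.88, adjusted p = 0.0206) and with the gate read from thinned barcodes (-0.78, adjusted p = 0.0136). Neutrophils were higher than macrophages for Mmp9 and lower for Mmp12, Mmp13, Mmp14 and Timp2, beside 46% called, 18.7% higher and 27.3% lower. There the median of all genes was -0.34 on the log2 scale. Without replicate 1 Mmp13 was not called (-6.20, adjusted p = 0.117), and without replicate 4 Mmp2 was lower in neutrophils (-3.68, adjusted p = 0.0111).

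The classes also differed in how the 3 inhibitors stood to the 7 enzymes. In fibroblasts there were 1.24, 1.19, 1.69 and 1.13 inhibitor UMIs per enzyme UMI, in mural cells 2.35, 1.64, 2.59 and 2.53, and in endothelial cells 2.27, 1.41, 2.26 and 1.38. Epithelial cells had more inhibitor per enzyme UMI, with 7.11, 9.48, 6.08 and 6.39. Their inhibitors summed to 191 to 309 CPM and their enzymes to 29.9 to 40.9. NK cells, with 1 to 11 enzyme UMIs per library, had ratios of 20, 4, 20 and 8.27. T cells had 5.04, 4.35, 2.88 and 1.36. The part of free RNA in these ratios was not tested. Neutrophils had less inhibitor than enzyme, with 0.052, 0.282, 0.178 and 0.309. In macrophages the ratio was 1.45, 1.68, 1.77 and 0.355, so that the enzymes were ahead only in replicate 4, the library with the highest Mmp12 and Mmp13 and the lowest Timp2 in that class. These ratios compare classes and libraries and are not molar ratios of proteins.

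**Figure D3:**
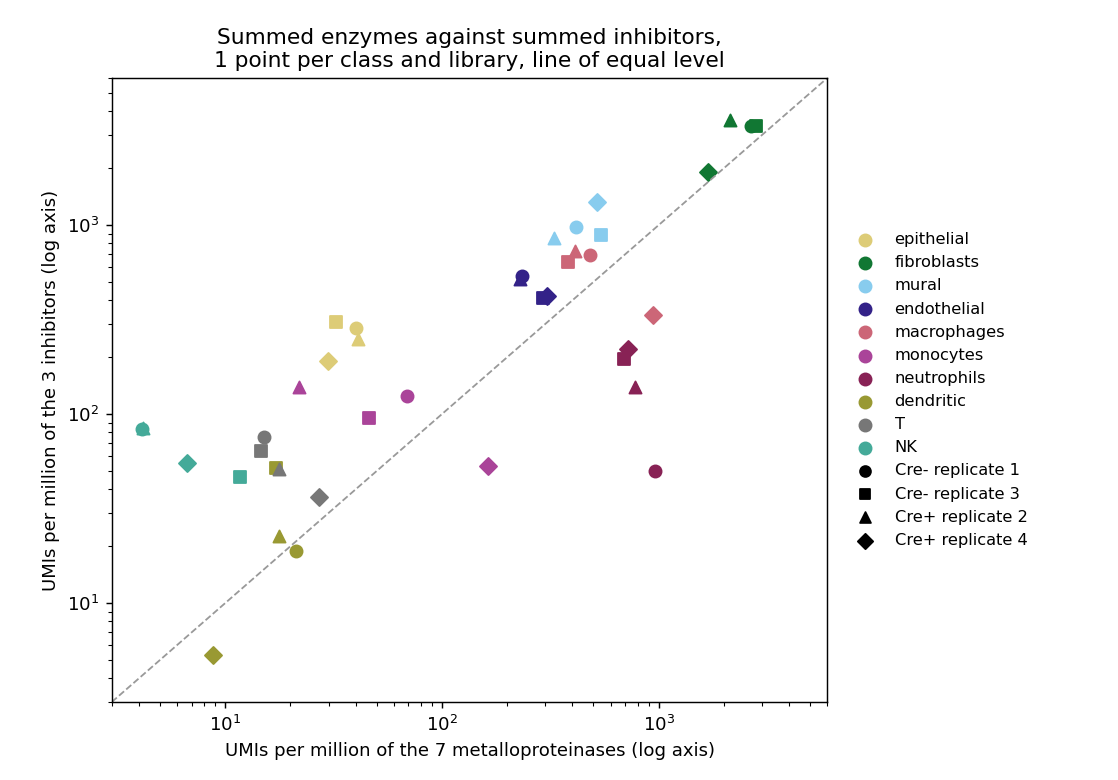
Summed CPM of the 3 inhibitors against those of the 7 metalloproteinases (both axes log), 1 point per class and library, with a dashed line of equal level. Fibroblasts lie at the top right just above the line, epithelial cells lie above it, neutrophils lie below it, and the macrophages of replicate 4 are the only macrophage point below it.

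Within the macrophages, barcodes with a UMI of Folr2 or Lyve1, markers of resident macrophages, differed from the others. They numbered 363, 627, 611 and 361, against 608, 747, 909 and 1950. Their Timp2 was 930, 831, 1038 and 554 CPM, against 362, 370, 421 and 261 in the other macrophages. The mean log2 ratio was 1.23 ± 0.12 (SD, n = 4), higher in 4 of 4 libraries (two-sided exact permutation p = 0.125, the smallest that 4 pairs allow). Mmp12 went the other way, with 107, 96.6, 89.1 and 601 against 326, 224, 331 and 710, a mean log2 ratio of -1.23 ± 0.72 (lower in 4 of 4, exact permutation p = 0.125). Mmp13 was lower in 3 of 4 libraries. Mmp9 was higher in 4 of 4, at a mean of 8.15 against 0.907 CPM, and Mmp14 was lower in 4 of 4, at 93.9 against 153.

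Mmp13 was detected more often in macrophages that also had an Mmp12 UMI, in 4 of 4 libraries. After thinning, the shares with Mmp13 were 15%, 8.45%, 8.75% and 18.6% of macrophages with an Mmp12 UMI and 4.59%, 2.61%, 1.74% and 5.15% of those without. As deposited, the shares were 29.1%, 25%, 29.0% and 47.2% against 9.99%, 8.85%, 7.6% and 15.3%. Mmp14 also went this way after thinning, at 17%, 16.9%, 16.25% and 10.6% against 12.9%, 10.5%, 9.65% and 7.04%. Timp2 was then detected less often with Mmp12 in 4 of 4 libraries. The share of all genes going either way was not counted. Macrophages with at least 3 Mmp12 UMIs, chosen after its values were seen, numbered 143, 119, 139 and 829 and held 96.5%, 97.9%, 97.3% and 98.5% of the macrophage Mmp12 UMIs.

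Within the epithelial class, barcodes with at least 3 UMIs from at least 2 of the basal genes Krt5, Krt14, Krt17 and Trp63 numbered 90, 206, 194 and 413. Their Timp3 was 132, 241, 223 and 273 CPM, against 20.8, 59.1, 45.7 and 36.2 in the other epithelial cells, a mean log2 ratio of 2.44 ± 0.38 (higher in 4 of 4, exact permutation p = 0.125). Timp2, with a mean log2 ratio of 0.69 ± 0.29, and Mmp14, with 0.73 ± 0.55, were also higher in 4 of 4. These barcodes were deeper, with median depths of 25213 to 40314 UMIs against 10349 to 21637. Hormone-sensing epithelial cells, gated on Prlr, Pgr, Esr1 and Cited1, had a lower Timp2 in 4 of 4 libraries, with a mean log2 ratio of -0.37 ± 0.14. In fibroblasts with a Pi16 or Dpp4 UMI, genes of adventitial fibroblasts, Mmp2 and Timp2 were higher than in the other fibroblasts in 4 of 4 libraries, with mean log2 ratios of 1.10 ± 1.22 and 1.18 ± 1.03. The other fibroblasts include the Krt14 barcodes of replicate 4, and their part in that result was not tested. For these splits within macrophages, epithelial cells and fibroblasts, the share of all genes going 1 way in 4 of 4 libraries was not counted. The splits used UMIs at full depth, so deeper barcodes enter them more easily, and the part of depth was not tested.

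**Figure D4:**
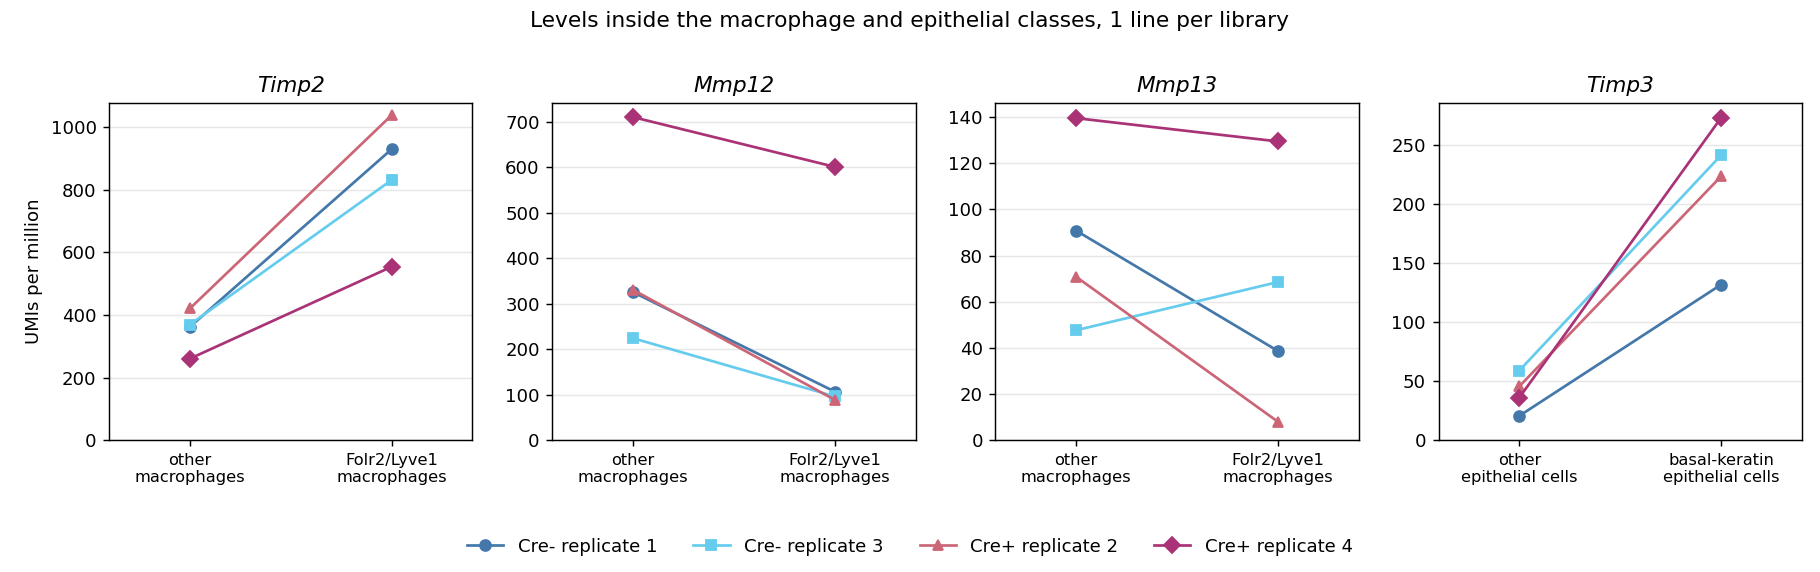
CPM inside the macrophage class (Timp2, Mmp12 and Mmp13, other macrophages against those with Folr2 or Lyve1) and the epithelial class (Timp3, others against barcodes with basal keratins), 1 line per library. Timp2 and Timp3 go up and Mmp12 goes down in 4 of 4 libraries, whereas Mmp13 goes down in 3 of 4.

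Other genes of matrix breakdown were counted in the same comparisons from 4 lists, and named by the size of their change. These lists too were chosen with earlier results of the data known, so their counts are a description. Of 16 further metalloproteinases, 15 were in the files and 5 were tested between classes. In fibroblasts against epithelial cells 3 were higher and 1 was lower, beside 26.8% and 24.6% of all genes. The higher ones were led by Mmp23, with 182 CPM in fibroblasts and 0.756 in epithelial cells (8.08 on the log2 scale, SE 0.42, adjusted p = 7.35e-17), and Mmp19 (7.63, SE 0.54), while the membrane-type Mmp15 was lower (-4.27, SE 0.40). Mmp19 averaged 107 CPM in monocytes, beside 97.5 in fibroblasts. Mmp8, the collagenase of neutrophil granules, averaged 85.7 in neutrophils, from 22.7 to 226 by library, and 3.20 in macrophages (4.74, SE 0.82, adjusted p = 4.84e-05). Mmp25 was also higher in neutrophils than in macrophages (3.66, SE 0.53). It averaged 28.3 in neutrophils and was higher in dendritic cells, at 116. Of 6 other inhibitors and regulators, 5 were tested. Reck, a membrane-anchored inhibitor, was at 53.9 in fibroblasts and 0.637 in macrophages (6.34, SE 0.44), and Furin, the protease that processes pro-Mmp14, was lower in fibroblasts than in macrophages (-1.29, SE 0.20).

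The plasminogen activators were led by different classes. Plat, the tissue activator, averaged 442 CPM in mural cells, 333 in fibroblasts, 125 in endothelial cells and 2.87 in macrophages (6.90 for fibroblasts minus macrophages, SE 0.49, adjusted p = 2.44e-14). Plau, the urokinase activator, was at 119.8 in macrophages and 21.9 in fibroblasts (-2.52, SE 0.34, adjusted p = 7.87e-08). Its receptor Plaur was highest in neutrophils among the classes compared, at 492 against 163 in macrophages (1.69, SE 0.33). Of the 5 genes of this list that were tested, 5 were higher in fibroblasts than in epithelial cells and 0 lower. The shares of all genes were 26.8% and 24.6%. Of 7 ADAMTS proteases, a related family, 7 were higher in fibroblasts than in epithelial cells, beside 26.8% of all genes. All 7 were also higher in fibroblasts than in macrophages, beside 30.2% of all genes. Among them was Adamts5 (7.98, SE 0.48, against epithelial cells). Adamts9 was highest in endothelial cells at 158 CPM, followed by mural cells at 68.5. Adamts4 was highest in mural cells at 234, followed by endothelial cells at 113. Both were near 1 CPM in epithelial cells, at 1.30 and 0.991.

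The genes whose levels were most like each member over 40 sums of class and library were found by Pearson's r of log2 (CPM + 1), among 12407 genes. The sums share mice and classes, so r is a description. Mmp3 was followed most closely by Adh1 (r = 0.94), Mmp2 by C1ra (r = 0.94), Mmp11 by Aoc3 and Il34 (r = 0.95 each), Mmp12 by Siglec1 (r = 0.90), Timp1 by P3h1 (r = 0.92), Timp2 by C4b (r = 0.90) and Timp3 by Fkbp14 (r = 0.94). Mmp14 was closest to Emp1 (r = 0.91) and Mmp9 to Amer2 (r = 0.88). Mmp13 had no close match, the best being Gal3st4 (r = 0.73).

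The genotype comparison set 2 Cre+ against 2 Cre- mice. The targeted gene was examined first. Frmd8 in epithelial cells was at 24.3 and 24.1 CPM in the Cre- and 5.59 and 10.9 in the Cre+ libraries, a log2 change of -1.46 (SE 0.43, unadjusted p = 0.022, adjusted p = 0.999). Both Cre+ libraries were also below both Cre- libraries in fibroblasts, macrophages and endothelial cells. In these classes 17%, 20.4% and 16.8% of all genes were lower without overlap. The log2 changes of Frmd8 there were -0.49, -0.48 and -0.17, and none was called. The endothelial change turned to 0.066 under a stricter gate on markers. Reads from the 3' end still count transcripts that lack the floxed exons, so a remaining level does not measure intact Frmd8.

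No gene was called between the genotypes by edgeR's quasi-likelihood test in epithelial cells, fibroblasts, macrophages, endothelial cells or all barcodes together, so the background is 0% in each. At an unadjusted p under 0.05 there were 391, 340, 321, 411 and 410 genes, and DESeq2 called 81, 41, 18, 3 and 43. On simulated counts with the sizes of the 2 against 2 macrophage sums, 7% of genes with a log2 change of 1 were recovered. Of those with a log2 change of 3, 100% were recovered, and the run gave 13 false calls. The simulation used a common dispersion of 0.088, and recovery at the spread of each gene in the real counts was not tested. Its counts were drawn from the mean profile over all classes, not from that of macrophages. The changed genes were taken from those above a minimum expected count, so recovery at lower counts was not tested. Log2 changes are given for a class averaging at least 50 CPM, for the member's highest class and for Timp1.

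In fibroblasts, 5 of 10 members were lower in both Cre+ libraries than in both Cre- libraries (Mmp2, Mmp3, Mmp13, Mmp14 and Timp1) and 0 were higher, beside 17% of all genes lower and 11.7% higher without overlap (28.7% in all). With at least 3 Col1a1 UMIs, 9 members were tested, of which 3 were lower (Mmp2, Mmp13 and Timp1) and 2 were higher (Timp2 and Timp3), beside 20.7% and 14.1% (34.8% in all). Mmp3 turned from -0.53 to 0.16 on the log2 scale and Timp3 from -0.03 to 0.27 with that limit. Mmp2 changed by -0.40, and without replicate 4 by 0.01. None of these changes passed the test.

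Among the fibroblast members, Mmp13 had the largest fitted change, with 145 and 2332 UMIs in the Cre- and 4 and 4 UMIs in the Cre+ libraries. The log2 change was -8.20 (SE 1.66, unadjusted p = 0.005, adjusted p = 0.998). DESeq2 called it (adjusted p = 0.00147), as did edgeR with no filter on low counts (adjusted p = 0.0348), and leaving out 1 library at a time gave -9.01 to -5.51 with no call. The Cre- UMIs came from few cells, with 6 barcodes of replicate 1 and 12 of replicate 3 holding 97.2% and 99.8% of them. Those of replicate 1 also carried Mmp3 at 10348 CPM, against 725 in its other fibroblasts, whereas in replicate 3 Mmp3 was at 708 in these barcodes and 923 in the others. The difference of the genotype effect between fibroblasts and epithelial cells was -9.87 (SE 1.78, adjusted p = 0.0621), beside 0.0373% of genes called. No member was called in that comparison or in those of macrophages with epithelial cells (0.00747% of genes called) and with fibroblasts (0%). On simulated counts drawn in the same way, the test of fibroblasts against epithelial cells recovered 0% of genes with a log2 change of 1. Of those with a log2 change of 3, 90% were recovered, and the run gave 4 false calls.

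In macrophages, 9 members were tested. Mmp12 was higher in both Cre+ libraries, and Mmp14, Timp1 and Timp3 were lower, beside 5.78% of genes higher and 20.4% lower without overlap (26.2% in all). Mmp12 changed by 1.44 (SE 0.61, unadjusted p = 0.063, adjusted p = 1.00), which rested on replicate 4: replicate 2 at 219 was close to the Cre- replicate 1 at 216, and without replicate 4 the change was 0.26. Without replicate 2, which leaves replicate 4 as the lone Cre+ library and assumes that it varies as the Cre- libraries do, Mmp12 (2.06, adjusted p = 0.000307) and Mmp13 (1.35, adjusted p = 0.000411) were called higher and Timp1 (-1.90, adjusted p = 0.00129) and Timp2 (-0.78, adjusted p = 0.025) lower. Without replicate 4, Mmp13 was at -0.51 and Timp2 at 0.22. For Mmp12, Mmp13 and Timp2, the 2 Cre+ libraries were farther from each other than replicate 2 was from either Cre- library.

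In epithelial cells, the class that Cre targets, 4 of 10 members were lower in both Cre+ libraries (Mmp2, Mmp11, Timp1 and Timp2) and 0 were higher, beside 16% of genes lower and 12.1% higher without overlap (28.2% in all). Mmp2 and Mmp11 averaged only 3.14 and 1.10 CPM in this class, below T cells at 4.20 and 2.99. The part of free RNA in these levels was not tested. Timp2 was at 235 and 210 against 161 and 101 CPM, a log2 change of -0.72 (SE 0.24, unadjusted p = 0.033, adjusted p = 0.999). In endothelial cells, 5 members were tested and Mmp2 and Timp1 were lower in both Cre+ libraries, beside 16.8% of genes lower (32.8% in all without overlap).

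Timp1 was thus lower in both Cre+ libraries in each of the 4 classes fitted by genotype, which come from the same 4 mice. In mural cells, which were not fitted by genotype, it overlapped, at 265 and 277 against 182 and 332, with replicate 4 the highest library. It was at 21.4 and 16.8 against 11 and 2.16 in epithelial cells, 28.8 and 20.4 against 14.7 and 5.77 in macrophages, and 51.2 and 73.9 against 41.2 and 38.4 in endothelial cells. Replicate 4 was the lowest library in each of the fitted classes. In single fitted classes, 16% to 20.4% of all genes were lower without overlap, and the share lower in all 4 classes was not counted. The free RNA of replicate 4 held Timp1 at 28.5 CPM, above its epithelial and macrophage levels. The part of free RNA in Timp1 was not tested. The log2 changes were -0.72 in fibroblasts, -1.54 in epithelial cells, -1.17 in macrophages and -0.65 in endothelial cells, with no adjusted p under the threshold. In all barcodes together, where fewer cells of a class and less RNA per cell cannot be told apart, Timp1 overlapped between the genotypes, at 97.0 and 143 against 174 and 26.2. The fibroblast barcodes numbered 234 and 325 against 509 and 178, and their part in that result was not tested. Among the 10 members, Mmp12 was higher in both Cre+ libraries in all barcodes (27.6 and 37.6 against 49.2 and 231) and Mmp9 lower, beside 9.25% and 17.8% of genes (27% in all without overlap).

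**Figure D5:**
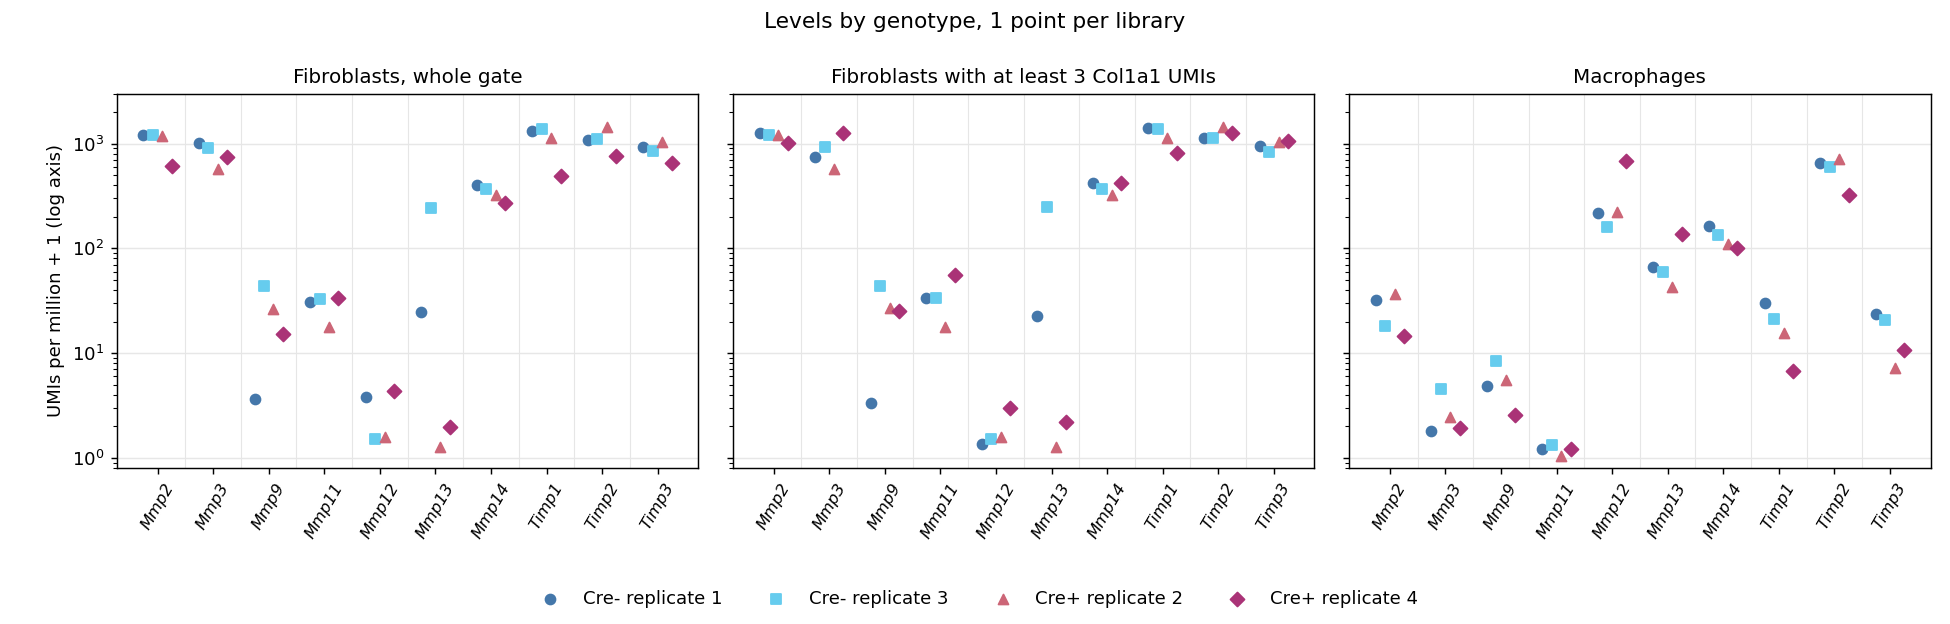
CPM plus 1 (log axis) of the 10 members in fibroblasts, in fibroblasts with at least 3 Col1a1 UMIs and in macrophages, 1 point per library, Cre- as circles and squares and Cre+ as triangles and diamonds. Fibroblast Mmp13 is at 23.8 and 243 in Cre- and under 1 in Cre+, and macrophage Mmp12 is high in replicate 4 alone.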

How the data were processed

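Sorted cells of 4 mouse mammary tumors were sequenced after droplet capture (10x Genomics). The values the authors deposited are unnormalized UMI counts for each barcode, made with Cell Ranger (version 6.1.2 per the file headers of 3 libraries, version 4 for Cre+ replicate 4, which holds all barcodes). The submitters' processing notes name a human build while the gene identifiers are mouse. The mouse build is not given in the sources used here, and neither is the sort gate. The 3 libraries of called cells hold no barcode under 500 UMIs. Within the kept barcodes, the depth per library was 107848230 to 134882211 UMIs, and 13.0% to 22.1% of barcodes with at least 1000 UMIs were over the mitochondrial limit.

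The members and lists were chosen with earlier results of these data known. Counts were summed per library and class, with at least 20 barcodes for a library to enter a class and 2 libraries for a class to enter a fit, which left out B cells. Between 478 and 1235 barcodes per library fell in no class. No doublet caller was run. The rule on other classes' markers drops a barcode only where no class leads every other by the set ratio. Barcodes with markers of 2 classes can therefore stay. Fibroblast barcodes of replicate 1 with UMIs of Hdc, a neutrophil marker, were among those kept. The class fit held genotype as a covariate, and each genotype fit held 1 class (edgeR 4.0.16 in R 4.3.3, TMM, filterByExpr, quasi-likelihood test). Shares of barcodes were also taken after thinning to 1000 UMIs. Sums of 1 mouse in different classes come from the same animal, so mice pair the classes; their deviations from the class means correlated by 0.024 to 0.359. Alternatives were DESeq2 1.42.0, RLE factors, no filter, a stricter gate, a thinned gate, other barcode limits, the mouse as a replicate block, 1 fit over all classes and leaving out each replicate. The fits were tested on simulated counts. Intervals and floors cover counting error only. Named were all members, up to 2 called genes per direction from each other list by size of change, and the most correlated genes.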

Additional observations from a re-analysis of the deposited data

Results flagged for a closer look

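Barcodes of at most 100 UMIs, which hold free RNA rather than cells, were present in the library of Cre+ replicate 4 and entered no comparison. Their 4981956 UMIs held each member above the limit that a count of 0 allows (0.602 CPM). Timp2 and Mmp12 were the most abundant of the 10, at 202 CPM (95% Poisson interval 189.8 to 215) and 215 CPM (202 to 228), followed by Mmp13 at 38.5, Timp3 at 37.7, Mmp14 at 32.1 and Timp1 at 28.5 CPM. Mmp2 was at 17.9, Mmp3 at 10.2, Mmp9 at 3.01 and Mmp11 at 1.20 CPM. In the same library, T cells, which should lack Mmp12, held it at 14.9 CPM, and macrophages at 688 CPM. Free RNA could not be measured in the other 3 libraries, which hold called cells.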

How the results depend on the processing

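Of the values of members between classes under the alternatives, 663 kept their direction and side of the threshold, 23 lost the call, 9 gained one and 10 turned sign. Between genotypes 349 kept theirs, 8 gained a call and 31 turned sign, and of the counts of called genes 166 stayed within 1.5 times and 40 did not. With the mouse as a replicate block in the class fit, the 6 class comparisons called 6920, 7682, 7386, 6796, 3473 and 5862 genes, and no call changed among the 47 member values refitted with it. With RLE factors the median log2 fold change of all genes moved from 0.02 to 0.17 in fibroblasts against macrophages, and no direction turned among the values refitted with them. Of the mean levels of the members in their highest class, 105 values stayed within 1 SD and 5 moved, all with the limits of the methods: fibroblast Mmp3 to 1330, Timp1 to 622, Timp2 to 1454 and Timp3 to 594 CPM, from 810, 1076, 1100 and 866, and mural Mmp11 to 102 from 67.8 CPM. The genotype fits hold each mouse once in a class and have no such block.

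Genotype counts of 0 became, with DESeq2, 81 in epithelial cells, 41 in fibroblasts, 18 in macrophages, 3 in endothelial cells and 43 in all barcodes. With no filter on low counts they were 11 in fibroblasts, 10 in macrophages and 5 in endothelial cells, and in 1 fit over all classes 5 in epithelial cells, 1 in fibroblasts and 1 in macrophages. Leaving out 1 replicate gave 0 to 22 (epithelial cells), 0 to 204 (fibroblasts), 0 to 1812 (macrophages, highest without replicate 2), 0 to 136 (endothelial cells) and 0 to 2 (all barcodes), and 1969 to 3909 for mural cells against fibroblasts, lowest without replicate 1. For the genotype effect of fibroblasts against epithelial cells, 5 called genes became 12 (DESeq2), 126 (no filter), 2 (limits of the methods), 3 (thinned gate) and 0 to 224 (leaving out 1 replicate). For macrophages against epithelial cells, 1 became 5 (DESeq2), 33 (no filter), 0 (stricter gate), 0 (limits of the methods), 2 (fibroblasts with at least 3 Col1a1 UMIs) and 0 to 79 (leaving out 1 replicate). For macrophages against fibroblasts, 0 became 1 (DESeq2), 40 (no filter) and 0 to 44 (leaving out 1 replicate). The cause was not tested.

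Signs that turned between classes were those of Mmp13 in fibroblasts against macrophages (0.18 with DESeq2, -3.64 to 0.46 leaving out 1 replicate), and of 2 low genes in neutrophils against macrophages. These were Timp1 (-2.89 with the stricter gate, -2.84 with the thinned gate, -2.86 to 1.04 leaving out 1 replicate) and Timp3 (0.16 with DESeq2, 0.027 with the stricter gate, 1.46 with the limits of the methods, 0.0023 with at least 2000 UMIs, -1.14 to 0.79 leaving out 1 replicate).

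Between genotypes, fibroblast Mmp3 turned to 0.15 (stricter gate), 0.14 (thinned gate) and 0.16 (Col1a1 limit), Mmp9 to 0.067 (stricter gate) and 0.11 (Col1a1 limit), Mmp11 to 0.16, 0.36 and 0.047 (stricter gate, thinned gate, Col1a1 limit), Timp2 to -0.0057 (1 fit over all classes) and -0.035 (limits of the methods), and Timp3 to 0.25, 0.27, 0.067 and 0.27 (stricter gate, limits of the methods, thinned gate, Col1a1 limit). In endothelial cells Mmp14 turned to -0.011 (no filter), -0.067 (a higher minimum in replicate 4) and -0.035 (limits of the methods), and Frmd8 to 0.066 (stricter gate). Leaving out 1 replicate gave -0.98 to 0.014 for Mmp2, -1.08 to 2.97 for Mmp9, -0.86 to 0.069 for Mmp11, -0.52 to 0.42 for Timp2 and -0.44 to 0.27 for Timp3 in fibroblasts, -0.51 to 1.35 for Mmp13 and -0.78 to 0.22 for Timp2 in macrophages, and -0.24 to 0.25 for Mmp14 and -2.02 to 0.0030 for Timp2 in endothelial cells. The number of mice limits all of these.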
